A study of Mus musculus with 6 samples.

Results

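The Toll-like receptors, their co-receptors and their shared adaptor were examined in bone marrow-derived macrophages (BMDMs) of WT and PYK2 KO mice. The 10 members were taken by gene symbol from the 55291 genes of the count matrix. They were the receptors Tlr1, Tlr2, Tlr4, Tlr7, Tlr8, Tlr9 and Tlr13, the co-receptor genes Cd14 and Ly96, and the adaptor gene Myd88. All 10 were listed in the matrix, and 7 had enough counts to be tested between genotypes. BMDMs are macrophages that differentiate in culture from marrow precursors. Here the marrow was cultured for 7 days with 20% L929-conditioned medium as the source of M-CSF, and no microbial ligand or other stimulus is named for these samples. RNA came from 3 WT and 3 PYK2 KO mice of the C57BL/6 strain, with 1 library for each mouse. The PYK2 KO mice lack PYK2 in the whole body, so the marrow cells had no PYK2 before they became macrophages. The sources used here give neither the age nor the sex of these donors, nor whether WT and PYK2 KO mice were littermates. The comparison asks whether macrophages without PYK2, a tyrosine kinase of macrophage motility and receptor signaling, carry different transcript levels of these receptors at rest.

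Toll-like receptors sense conserved microbial molecules. TLR1, TLR2 and TLR4 sit at the cell surface, where TLR2 pairs with TLR1 or TLR6 to bind bacterial lipoproteins, and where TLR4 binds lipopolysaccharide together with MD-2, the product of Ly96, after CD14 has handed the ligand over. TLR7, TLR8, TLR9 and TLR13 lie in endosomes and sense nucleic acids, in the mouse including bacterial ribosomal RNA for TLR13 and unmethylated CpG DNA for TLR9. All of these receptors signal through the adaptor MyD88 to IRAK kinases, TRAF6, NF-κB and IRF factors, and macrophages are among the cells best equipped with them.

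Each library held between 2857097 and 3917207 counts. The libraries are 3′ tags, so that a transcript is counted at its 3′ end whatever its length. Levels are given as CPM, the counts scaled to TMM-adjusted library sizes, and are not divided by transcript length. A count of 3 in a library, taken as the floor, corresponds to between 0.766 and 1.05 CPM. Values of single libraries are given in the order 1, 5 and 6 for WT and 2, 3 and 4 for PYK2 KO. Ptk2b, which encodes PYK2, had a log2 fold change of -3.15 (PYK2 KO against WT, edgeR adjusted p = 1.03e-11), a fold of 0.112. The 8 macrophage markers all passed the filter on low counts and summed to between 28864 and 31094 CPM, with Lyz2, Cd68 and Csf1r among them. Of 38 markers of other cells, 11 had more than 3 counts in any library, which were Cd79b, S100a8, S100a9, Mpo, Elane, Ngp, Camp, Retnlg, Cxcr2, Batf3 and Col1a2. Of the defining genes, Ms4a1, Cd79a and Pax5 of B cells, Cd3d and Cd3e of T cells, and Flt3, Zbtb46 and Xcr1 of dendritic cells were at 0 in every library. The neutrophil list summed to between 110.0 and 159 CPM in WT and between 120.3 and 209 CPM in PYK2 KO BMDMs, and its part in the results below was not tested. In bulk RNA, fewer cells that carry a transcript and less of it in each cell cannot be told apart.

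Several members have a close copy or a neighbor in the genome, which bears on how surely a read is assigned. Tlr1 (chr5:64924679-64933563, minus strand, GENCODE M21 on GRCm38) lies 18467 bases from Tlr6, its paralog on the same strand. Their longest protein-coding transcripts share an identical run of 229 bases inside the coding sequence, the longest among all pairs of the 15 Toll-like receptor pathway genes compared. The run lies at chr5:64925537-64925765 in Tlr1 and at chr5:64953828-64954056 in Tlr6. It is printed here with 20 bases on either side, in the sense of the transcript. The capitals mark the bases that differ between the paralogs.
Tlr1: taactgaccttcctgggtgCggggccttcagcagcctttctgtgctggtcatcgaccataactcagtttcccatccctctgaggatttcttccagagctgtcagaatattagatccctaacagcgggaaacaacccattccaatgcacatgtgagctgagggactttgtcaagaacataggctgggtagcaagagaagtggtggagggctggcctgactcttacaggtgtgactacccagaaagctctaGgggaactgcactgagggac
Tlr6: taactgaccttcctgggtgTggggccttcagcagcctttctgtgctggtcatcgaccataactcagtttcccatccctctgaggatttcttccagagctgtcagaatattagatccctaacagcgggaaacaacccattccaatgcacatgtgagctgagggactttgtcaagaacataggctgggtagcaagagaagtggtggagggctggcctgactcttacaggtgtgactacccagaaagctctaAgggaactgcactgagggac
The run ends 858 bases before the annotated end of the Tlr1 transcript and 1797 bases before that of Tlr6. The last 300 bases of either transcript share no run of 15 bases or more with the other gene. The last 1000 bases of Tlr1 do share a run of 208 bases with Tlr6. A read that lies wholly in a shared run cannot be assigned to either gene alone, and where in the transcripts the counted reads lie was not analysed here. Every other pair among these genes shared at most 18 bases in a row. Tlr8 (chrX:167242696-167264329) and Tlr7 (chrX:167304929-167330558) are neighbors on the minus strand of the X chromosome, 40599 bases apart, and Tlr13 (chrX:106143204-106160493, plus strand) is X-linked as well. Myd88 (chr9:119335934-119341411, minus strand) overlaps Acaa1a and Slc22a14. Acaa1a had between 359 and 520 counts in a library, and Slc22a14, which overlaps the last 1000 bases of Myd88 on the same strand, was at 0 in all libraries. How reads in these overlaps were assigned is not given in the sources used here, so the Myd88 count is uncertain to that extent.

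The receptor transcripts differed far more from each other than between genotypes. Cd14 had the highest level of the 10 members, with a mean of 380.1 ± 44.0 CPM (SD, n = 6 libraries). Tlr13 was the highest of the receptors, at 184 ± 17.4 CPM (SD, n = 6 libraries), and its lowest library (157 CPM) lay above the highest Tlr2 library (106 CPM). Tlr2 at 100.1 ± 5.85 CPM and Myd88 at 97.0 ± 4.10 CPM (SD, n = 6 libraries each) overlapped and could not be ordered. Next came Tlr1 at 27.8 ± 2.63 CPM and Tlr4 at 16.9 ± 5.17 CPM (SD, n = 6 libraries each), which overlapped because of the highest Tlr4 library. Tlr7 followed at 3.30 ± 0.72 CPM (SD, n = 6 libraries) and stood clear of the genes on both sides. Ly96, Tlr9 and Tlr8 were below 2 CPM in every library, with overlapping ranges from each to the next.

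Sequence upstream of the starts is shown for the receptors at both ends of this order, Tlr13 and Tlr2 with the highest levels and Tlr9 and Tlr8 with the lowest. The windows run from 250 bases before to 50 bases after an annotated start (RefSeq, GRCm38.p6). Windows were taken for 6 of the 10 members. None was taken for Tlr4, Tlr7, Cd14 and Ly96, which does not show that an annotated start is missing for them. The capitals mark GGAAGT, a core bound by ETS factors such as PU.1, the lineage factor of macrophages, and TATAAA, both searched on both strands.
Tlr13: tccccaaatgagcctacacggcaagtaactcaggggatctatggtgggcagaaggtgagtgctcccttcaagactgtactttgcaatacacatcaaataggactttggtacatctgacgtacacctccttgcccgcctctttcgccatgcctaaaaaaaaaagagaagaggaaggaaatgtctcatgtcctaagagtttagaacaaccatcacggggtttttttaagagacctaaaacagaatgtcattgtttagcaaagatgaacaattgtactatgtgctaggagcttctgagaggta
Tlr2: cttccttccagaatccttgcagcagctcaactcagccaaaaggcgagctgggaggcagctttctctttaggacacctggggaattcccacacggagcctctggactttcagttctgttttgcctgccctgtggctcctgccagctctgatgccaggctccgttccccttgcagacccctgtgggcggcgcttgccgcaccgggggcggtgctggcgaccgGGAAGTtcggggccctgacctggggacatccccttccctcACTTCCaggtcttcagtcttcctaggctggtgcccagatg
Tlr9: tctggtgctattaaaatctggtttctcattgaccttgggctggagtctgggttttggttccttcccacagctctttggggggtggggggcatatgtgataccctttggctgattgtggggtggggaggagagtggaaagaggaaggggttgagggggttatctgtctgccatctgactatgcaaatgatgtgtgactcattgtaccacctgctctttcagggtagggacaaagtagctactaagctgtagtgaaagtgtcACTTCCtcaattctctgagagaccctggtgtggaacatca
Tlr8: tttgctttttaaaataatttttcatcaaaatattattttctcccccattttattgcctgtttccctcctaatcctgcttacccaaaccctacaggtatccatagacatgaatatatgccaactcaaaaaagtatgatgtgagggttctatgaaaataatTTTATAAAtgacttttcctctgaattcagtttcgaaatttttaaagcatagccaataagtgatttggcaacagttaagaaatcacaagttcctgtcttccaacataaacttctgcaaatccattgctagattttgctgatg
These windows lie at chrX:106143025-106143324 (plus strand), chr3:83841559-83841858 (minus strand), chr9:106222348-106222647 (plus strand) and chrX:167264280-167264579 (minus strand). GGAAGT was found at 2 places in the Tlr2 window and at 1 place in that of Tlr9, and was not found in those of Tlr13 and Tlr8. TATAAA was found only in the Tlr8 window, at 2 overlapping places, 1 on each strand. Of 32851 such windows in the table, 23.8% held GGAAGT and 13.6% held TATAAA. GC content was 62.0% in the Tlr2 window, 49.7% in that of Tlr9, 43.3% in that of Tlr13 and 32.3% in that of Tlr8.

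No member passed the test between genotypes. Of the 7 tested members, 0 had an adjusted p-value under 0.05 in the quasi-likelihood test of edgeR (Benjamini-Hochberg adjustment over the 9815 genes tested), against 0.255% of all genes tested (25 genes). DESeq2 and limma also called 0 of the members. At an unadjusted p-value under 0.05 there was 1 member, Tlr13, against 6.03% of all genes tested. Tlr13 was also the only tested member whose genotypes did not overlap, as 10.2% of all genes tested did not (5.17% higher and 5.07% lower in PYK2 KO BMDMs). The median log2 fold change of the 7 members was 0.05, and that of all genes tested was 0.0019. Of the 7 members, 4 had a positive and 3 a negative log2 fold change.

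**Figure D1:**
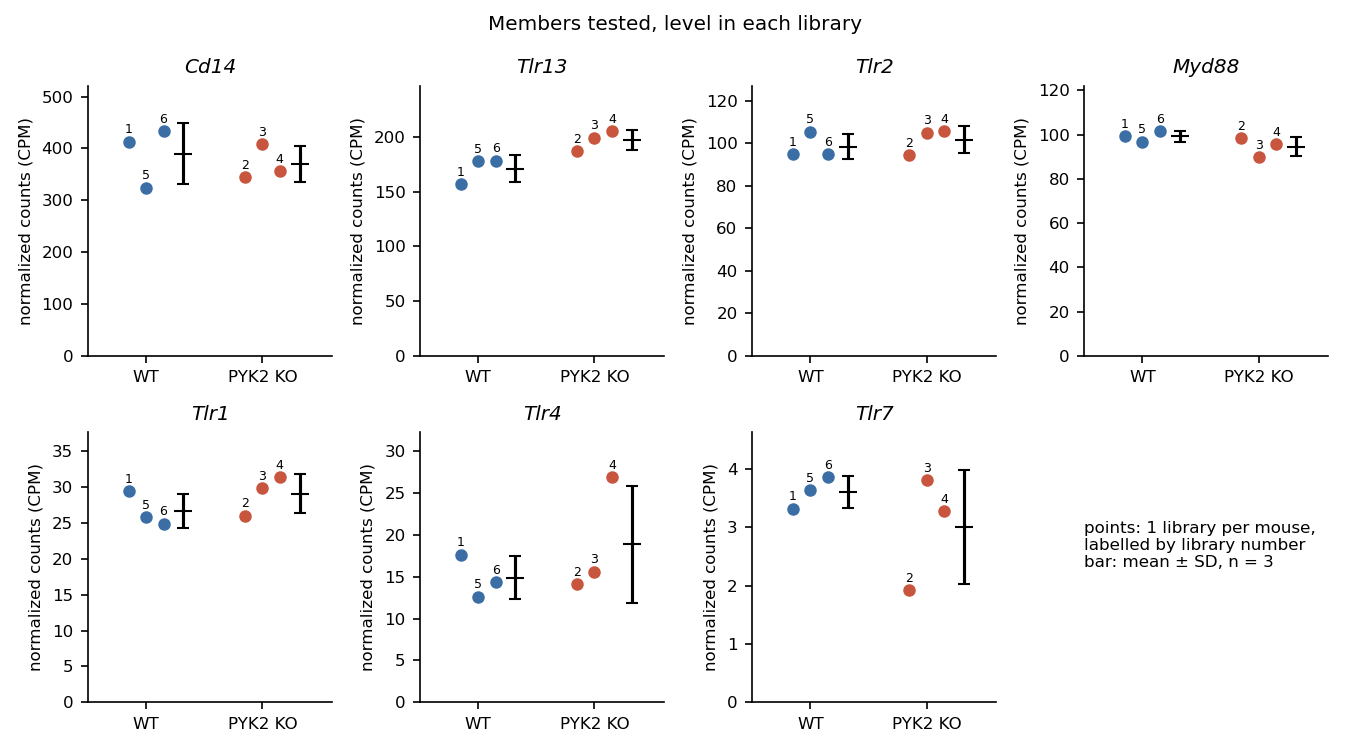
Level of the 7 tested members in each library, in CPM on linear axes that start at 0, with WT in blue and PYK2 KO in red. Points are libraries labelled by their number, and bars give mean ± SD (n = 3 mice). All 3 PYK2 KO points of Tlr13 lie above the WT points, and PYK2 KO library 4 stands apart for Tlr4.

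Among the surface receptors, Tlr2 (chr3:83836272-83841767, minus strand), the common partner in lipoprotein recognition, had the narrowest range relative to its level, at 0.16 in log2 CPM over the 6 libraries. Its counts were 372, 377 and 271 for WT and 294, 303 and 355 for PYK2 KO, and its level in all 6 libraries lay between 94.3 and 106 CPM. WT library 5 and PYK2 KO libraries 3 and 4 were at the upper end of that range and the remaining libraries at the lower, so that the genotypes overlapped throughout. On the log2 scale the difference of PYK2 KO minus WT was 0.05 with a standard error of 0.09 (adjusted p = 0.985 in edgeR's quasi-likelihood test), and the 95% interval of the fold ran from 0.904 to 1.18.

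Tlr1, which encodes the partner of TLR2 for triacylated lipoproteins, was at 29.4, 25.8 and 24.9 CPM for WT. For PYK2 KO the levels were 26.0, 29.8 and 31.3 CPM. The highest values were those of PYK2 KO libraries 4 and 3, but WT library 1 lay above PYK2 KO library 2. PYK2 KO against WT, the log2 fold change was 0.12 (standard error 0.14, edgeR adjusted p = 0.964), with a 95% interval of the fold from 0.881 to 1.33. The ratio of Tlr1 to Tlr2 was 0.272 ± 0.034 in WT and 0.285 ± 0.010 in PYK2 KO BMDMs (n = 3 mice each, SD), and the genotypes overlapped.

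The lipopolysaccharide receptor gene Tlr4 (chr4:66827584-66930284, plus strand) varied most between libraries of the tested members. The counts for WT were 69, 45 and 41, and those for PYK2 KO 44, 45 and 90. Scaled, this was 17.6, 12.6 and 14.4 CPM for WT against 14.1, 15.6 and 26.8 CPM for PYK2 KO. PYK2 KO library 4 alone was high, while PYK2 KO libraries 2 and 3 lay inside the WT range. The log2 fold change was 0.35 (standard error 0.23, edgeR adjusted p = 0.921), with a 95% interval of the fold from 0.903 to 1.79. Without PYK2 KO library 4 it was -0.011. The same library had the highest count of B2m, the MHC class I light chain, at 5102, followed by 3803 in WT library 1 and 3020 in PYK2 KO library 3, against 607 to 1631 in the other libraries. Those 3 libraries also had the highest levels of Tlr4 and of Tlr1. The part in the Tlr4 and Tlr1 values of what set B2m apart in them was not tested.

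**Figure D2:**
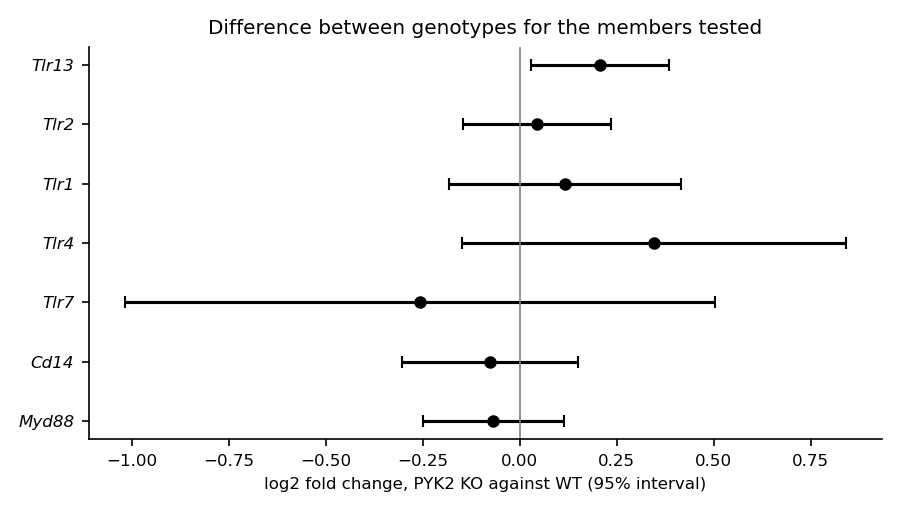
Log2 fold change of the 7 tested members, PYK2 KO against WT (points), with the 95% interval from edgeR's quasi-likelihood fit (bars). The interval of Tlr13 lies above 0 before adjustment over all genes, the other 6 include 0, and those of Tlr7 and Tlr4 are the widest.

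Cd14 (chr18:36725067-36726798, minus strand) encodes the co-receptor that binds lipopolysaccharide and transfers it to MD-2 and TLR4. WT levels were 413, 324 and 434 CPM, against 345, 409 and 356 CPM for PYK2 KO. The lowest and the highest library were both WT, and all PYK2 KO values lay between them. For Cd14 the log2 fold change was -0.08 (standard error 0.11, edgeR adjusted p = 0.965), with a 95% interval of the fold from 0.810 to 1.11. It was 0.0058 without WT library 6. Cd14 exceeded Tlr4 by a ratio of 26.4 ± 3.43 in WT and 21.3 ± 7.01 in PYK2 KO BMDMs (n = 3 mice each, SD). The lowest ratio, 13.3, belonged to PYK2 KO library 4, the library with the high Tlr4 level.

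Ly96 (chr1:16688051-16709611, plus strand), which encodes MD-2, was close to the floor in all libraries and was left out of the test by the filter. WT counts were 6, 6 and 1, PYK2 KO counts 3, 3 and 5. Summed by genotype there were 13 counts in WT and 11 in PYK2 KO BMDMs, a ratio of 0.935 per normalized total with an exact binomial 95% interval from 0.379 to 2.26 that covers counting error only. A difference within those limits was not detectable at these counts. Whether the annotation used in counting covers the 3′ end of Ly96 was not tested, so a low count here does not by itself show a low transcript level. Its annotated transcript is short, with 632 bases, of which 74 follow the stop codon. The related gene Ly86, which encodes MD-1, had between 179 and 404 counts in a library.

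Tlr13, the endosomal receptor for bacterial ribosomal RNA, had 613, 635 and 509 counts for WT and 582, 575 and 689 counts for PYK2 KO. Normalized, the WT levels were 157, 178 and 178 CPM and the PYK2 KO levels 187, 199 and 205 CPM. All 3 PYK2 KO libraries lay above all 3 WT libraries, with means of 197 ± 9.49 and 171 ± 12.4 CPM (SD, n = 3 mice each). The log2 fold change was 0.21 (standard error 0.08) with an unadjusted p = 0.025 and an adjusted p = 0.718 in edgeR's quasi-likelihood test, so it did not pass over all genes tested. The 95% interval of the fold, before any adjustment, ran from 1.02 to 1.31. The two-sided exact permutation test gave p = 0.1, the smallest that 3 against 3 mice allow. When each library was left out in turn, the log2 fold change of Tlr13 ran from 0.15 to 0.24, and the smallest adjusted p-value in those edgeR fits was 0.635. Since the gene is X-linked, transcripts that differ by sex were read as well, picked once the results were known. Xist had between 84 and 146 counts in every library and the Y-linked genes Ddx3y, Uty, Kdm5d and Eif2s3y had 0 in every library, so no library stood apart by these genes.

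Tlr7, which senses single-stranded RNA, was the lowest of the tested members. Its WT counts were 13, 13 and 11, and its PYK2 KO counts 6, 11 and 11. PYK2 KO library 2 was low, and the other 5 libraries lay between 3.28 and 3.86 CPM. A log2 fold change of -0.26 (standard error 0.36, edgeR adjusted p = 0.965) went with a 95% interval of the fold from 0.494 to 1.42, so that at these counts neither a fall to the lower nor a rise to the upper of these limits could be told from no difference. Without PYK2 KO library 2 the log2 fold change was -0.02.

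Tlr8 and Tlr9 were not measurable at this depth. Tlr8, the X-linked neighbor of Tlr7, had 2 counts in PYK2 KO library 3 and 0 in the other 5 libraries, where up to 3 counts, or between 0.766 and 1.05 CPM, remain possible. Tlr9 (chr9:106222598-106226883, plus strand) had 1, 0 and 1 counts in either genotype. Neither gene passed the filter, and no fold is given for them. Of the Toll-like receptors outside the members, Tlr3 had at most 8 counts and Tlr5 at most 3 counts in a library, and Tlr11 and Tlr12 had 0 throughout.

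**Figure D3:**
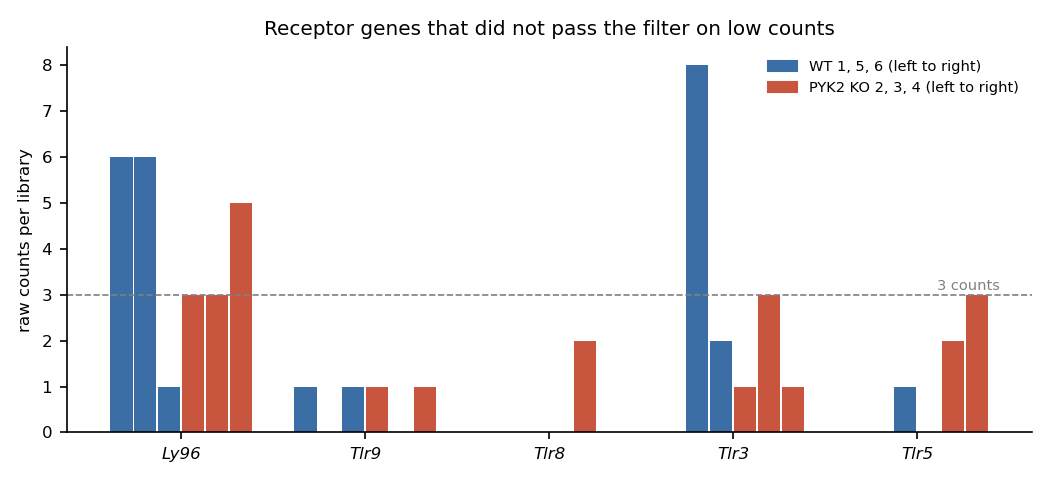
Raw counts per library of Ly96, Tlr9, Tlr8, Tlr3 and Tlr5, with WT in blue and PYK2 KO in red, and the floor of 3 counts as a dashed line. Ly96 reaches at most 6 counts, while Tlr8 has counts in a single library.

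Tlr6, the other partner of TLR2 and the paralog of Tlr1, was the only further receptor that was tested. For WT its levels were 19.7, 18.5 and 15.1 CPM, and for PYK2 KO 18.0, 12.5 and 16.7 CPM. The ranges overlapped, and the log2 fold change was -0.18 (standard error 0.19, edgeR adjusted p = 0.949). The ratio of Tlr1 to Tlr6 was 1.51 ± 0.13 in WT and 1.90 ± 0.47 in PYK2 KO BMDMs (n = 3 mice each, SD). It was highest in PYK2 KO library 3, at 2.39, and the genotypes overlapped.

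Myd88, the adaptor shared by the receptors above, ranged over 0.18 in log2 CPM, close to Tlr2. Levels of 99.3, 96.8 and 102 CPM were measured for WT and of 98.5, 89.7 and 95.7 CPM for PYK2 KO. PYK2 KO library 3 was the lowest, and the genotypes overlapped. For Myd88 the log2 fold change was -0.07 (standard error 0.09, edgeR adjusted p = 0.964), with a 95% interval of the fold from 0.841 to 1.08.

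How far the libraries of a genotype differed was compared with the spread that counting alone gives. For Myd88, Tlr7, Tlr1 and Tlr2 the SD between libraries of a genotype was between 0.657 and 1.12 times the counting SD, so that little beyond counting error was seen. It was 1.46 times for Tlr13, 2.30 times for Tlr4 and 4.39 times for Cd14. The coefficient of variation within genotypes was 3.71% for Myd88, 6.01% for Tlr13, 12.5% for Cd14 and 31.1% for Tlr4. Tlr4, Tlr7 and Cd14 had the widest range of log2 CPM over the 6 libraries, at 1.05, 0.82 and 0.42. The genes of similar level whose pattern over the 6 libraries was most like that of Tlr4 were Stk26 and Flvcr1, with a root mean square difference of 0.08 each in centered log2 CPM, against a median of 0.38 over 6525 candidates. For Cd14 they were C5ar1, the complement C5a receptor, at 0.07 and Tuba1c at 0.08, against a median of 0.19 over 1954 candidates. For Tlr7 they were Mdm1 at 0.05 and Taf12 at 0.07, against a median of 0.39 over 2640 candidates. The best matches of many candidates are close by selection.

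The order of the receptors by share held in all 6 libraries for Tlr13, Tlr2, Tlr1, Tlr4 and Tlr7. Tlr13 gave 55.3 ± 2.02% of the summed CPM of the 7 receptors (SD, n = 6 libraries), Tlr2 30.2 ± 1.51%, Tlr1 8.39 ± 0.69%, Tlr4 5.03 ± 1.24% and Tlr7 1.00 ± 0.23%. The shares of Tlr2 were 31.4%, 32.4% and 29.98% for WT and 29.2%, 29.6% and 28.4% for PYK2 KO, and those of Tlr7 1.10%, 1.12% and 1.22% for WT and 0.595%, 1.08% and 0.879% for PYK2 KO. For both, each PYK2 KO share lay below each WT share, while those of Tlr13, Tlr1 and Tlr4 overlapped. In CPM, the genotypes overlapped for Tlr2 and Tlr7 too. The closest Tlr7 shares, 1.08% and 1.10%, came from 11 counts in PYK2 KO library 3 and 13 in WT library 1. Of all genes tested, 10.2% did not overlap in level, and no such rate was taken for shares or ratios. Since the shares sum to a whole, none is independent of the others. The shares were not tested. Tlr8 and Tlr9 together stayed below 1% in every library. The summed level of the 7 receptors was 302, 325 and 317 CPM for WT and 323, 354 and 373 CPM for PYK2 KO. WT library 5 lay above PYK2 KO library 2, so the genotypes overlapped. Tlr1, Tlr2 and Tlr4, the surface receptors among these 7, made up 44.5 ± 2.33% of that sum in WT and 42.7 ± 1.21% in PYK2 KO BMDMs (n = 3 mice each, SD), again with overlap. Tlr6, also a surface receptor, is outside these 7 and enters neither that sum nor the shares. Its mean was 16.7 CPM over the 6 libraries. The ratio of Tlr13 to Tlr2 was 1.65, 1.68 and 1.88 for WT and 1.98, 1.90 and 1.94 for PYK2 KO. These ranges did not overlap, as the Tlr13 levels alone did not, and the ratio was not tested.

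**Figure D4:**
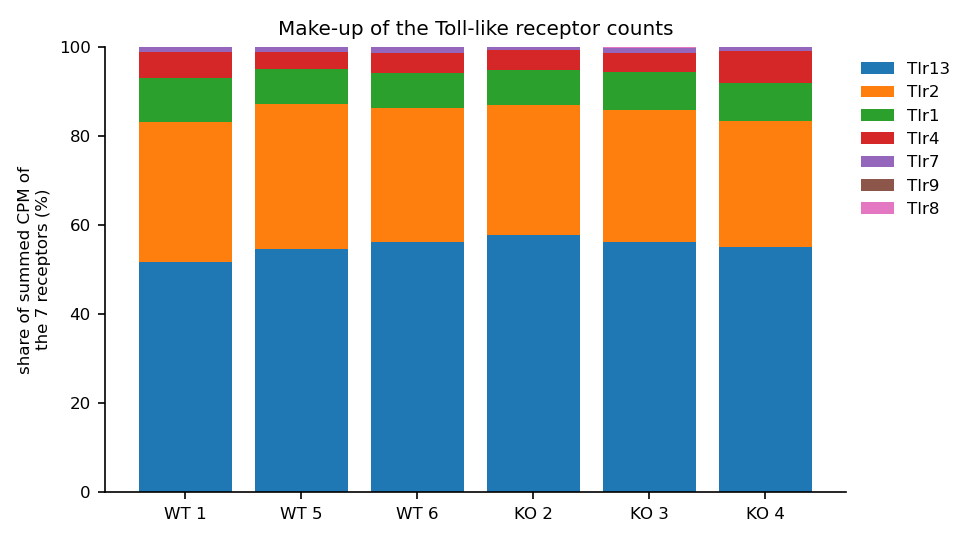
Share of each receptor in the summed CPM of the 7 Toll-like receptors, in percent, with a stacked bar for each library. Tlr13 takes more than any other receptor in every library, followed by Tlr2, and Tlr9 and Tlr8 are too low to be seen.

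The genes that carry the receptors to their sites or work beside them were represented by 15 genes, all tested, and 0 passed the threshold in edgeR's quasi-likelihood test. Their median log2 fold change was 0.01, with 8 genes positive and 7 negative, and 2 had an unadjusted p-value under 0.05, against 6.03% of all genes tested. These were Ly86, at 78.3 ± 16.4 CPM for WT against 102 ± 16.5 CPM for PYK2 KO, and Cd36, a scavenger receptor that assists TLR2, at 17.7 ± 8.51 and 30.3 ± 11.5 CPM (SD, n = 3 mice each). Their log2 fold changes were 0.37 and 0.74, with adjusted p-values of 0.661 and 0.697 in edgeR's test, and for both the genotypes overlapped. Cd36 was highest in the 3 libraries with the most B2m, at 41.1 CPM in PYK2 KO library 4, 31.5 CPM in PYK2 KO library 3 and 27.1 CPM in WT library 1, against 10.5 to 18.3 CPM in the others. The neutrophil gene S100a9 was highest in the same libraries, at 103, 93.2 and 70.7 CPM in that order, while each of the other 4 tested neutrophil genes, S100a8, Ngp, Mpo and Camp, had another library among its 3 highest. The part of B2m or of neutrophil RNA in the Cd36 difference was not tested. The endosomal proteases Ctsb and Lgmn, which process nucleic acid receptors, had log2 fold changes of 0.10 and -0.09. Unc93b1, the chaperone that brings TLR7, TLR9 and TLR13 to endosomes, and Cd180, the partner of MD-1, were looked at after their values were seen. They were at levels between 330 and 472 CPM and between 517 and 578 CPM in a library, with log2 fold changes of -0.02 and 0.02.

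The adaptors and proximal kinases comprised 22 genes, of which 19 were tested and 1 passed the threshold. That gene was Wdfy1, which encodes a protein reported to link TLR3 and TLR4 to the adaptor TRIF. Its levels for WT, 37.0, 36.7 and 35.1 CPM, lay far above those for PYK2 KO, 7.38, 8.66 and 6.56 CPM. Its log2 fold change was -2.27 (edgeR adjusted p = 1.36e-06, with 0.143% of all genes tested called lower), and it was already known to differ when the list was written, so its place in the list is no independent evidence about the pathway. The kinase adaptor gene Pik3ap1 (BCAP) had a log2 fold change of -0.17 and Tbk1 one of -0.12. In both, the 3 PYK2 KO values lay below the WT values, but neither passed (adjusted p = 0.787 and 0.934 in edgeR's test). Ikbke, which encodes a relative of TBK1, had a log2 fold change of -0.14. The sorting adaptor gene Tirap and the TRIF gene Ticam1, picked after their values were seen, had log2 fold changes of 0.10 and -0.12. The median of the 19 genes was 0.03, with 10 positive and 9 negative. An unadjusted p-value under 0.05 was found for 2 of them, Wdfy1 and Pik3ap1, against 6.03% of all genes tested. In 4, with Wdfy1 among them, the genotypes did not overlap, all lower in PYK2 KO. Of all genes tested, 10.2% did not overlap in either direction, and 5.07% were lower.

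Of 16 NF-κB and IRF genes, all tested, 0 passed in edgeR's test, 1 had an unadjusted p-value under 0.05 (6.03% of all genes tested), and the median log2 fold change was 0.01. That gene was Nfkbiz, an inducible regulator of NF-κB target genes, with a mean of 12.1 ± 1.29 CPM for WT against 7.99 ± 1.44 CPM for PYK2 KO (SD, n = 3 mice each). The log2 fold change was -0.60 (standard error 0.22, edgeR adjusted p = 0.650). In 3 of the 16 genes the genotypes did not overlap, Nfkbiz and Nfkb2 lower and Chuk higher in PYK2 KO, against 10.2% of all genes tested in either direction. Nfkb2 (p100) had a log2 fold change of -0.18 and the kinase gene Ikbkb one of -0.21, while Chuk, which encodes the other catalytic IKK subunit, had one of 0.26. Of 13 negative regulators, 11 were tested and 0 passed, with 1 at an unadjusted p-value under 0.05 (6.03% of all genes tested) and a median of -0.04. The MAP kinase phosphatase gene Dusp1 had 123, 101 and 114 counts for WT and 41, 86 and 52 counts for PYK2 KO, which scaled to 28.3 to 40.0 CPM and 13.2 to 29.8 CPM. PYK2 KO library 3 lay inside the WT range, and the log2 fold change of -0.77 had an adjusted p = 0.497 in edgeR's test. Without PYK2 KO library 3, Dusp1 passed the threshold. The others with the smallest p-values were Nlrc3, Cyld and Tnip1, with log2 fold changes of -0.28, 0.19 and -0.09. Of the 11 tested negative regulators, 1 did not overlap between genotypes, Cyld, higher in PYK2 KO, against 10.2% of all genes tested in either direction.

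Of 27 genes that Toll-like receptor ligands induce, 15 were tested, and 9 had at most 3 counts in every library, with Il6, Il12a, Il12b and Ifnb1 at 0 throughout. Among those tested, 1 passed the threshold, the acute phase gene Saa3, at 87.1, 98.8 and 98.1 CPM for WT against 186, 218 and 198 CPM for PYK2 KO. It too was known to differ when the list was written. Its log2 fold change was 1.09 (edgeR adjusted p = 5.67e-06, with 0.112% of all genes tested called higher), while the median of the 15 genes was -0.03, with 6 positive and 9 negative. At an unadjusted p-value under 0.05 there were 4 of the 15, Saa3 and Acod1 with positive and Ccl3 and Ccl4 with negative log2 fold changes, against 6.03% of all genes tested. Acod1, which makes itaconate, had WT levels of 42.6, 43.7 and 69.0 CPM and PYK2 KO levels of 78.9, 90.4 and 62.3 CPM, with a log2 fold change of 0.59 and an adjusted p = 0.401 in edgeR's test. The chemokine genes Ccl3 and Ccl4 had log2 fold changes of -0.27 and -0.24, with adjusted p-values of 0.739 and 0.724 in edgeR's test. In Acod1, Ccl3 and Ccl4 the genotypes overlapped. Of the 15 tested genes, 2 did not overlap, Saa3 higher and Il1rn lower in PYK2 KO, against 10.2% of all genes tested in either direction.

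**Figure D5:**
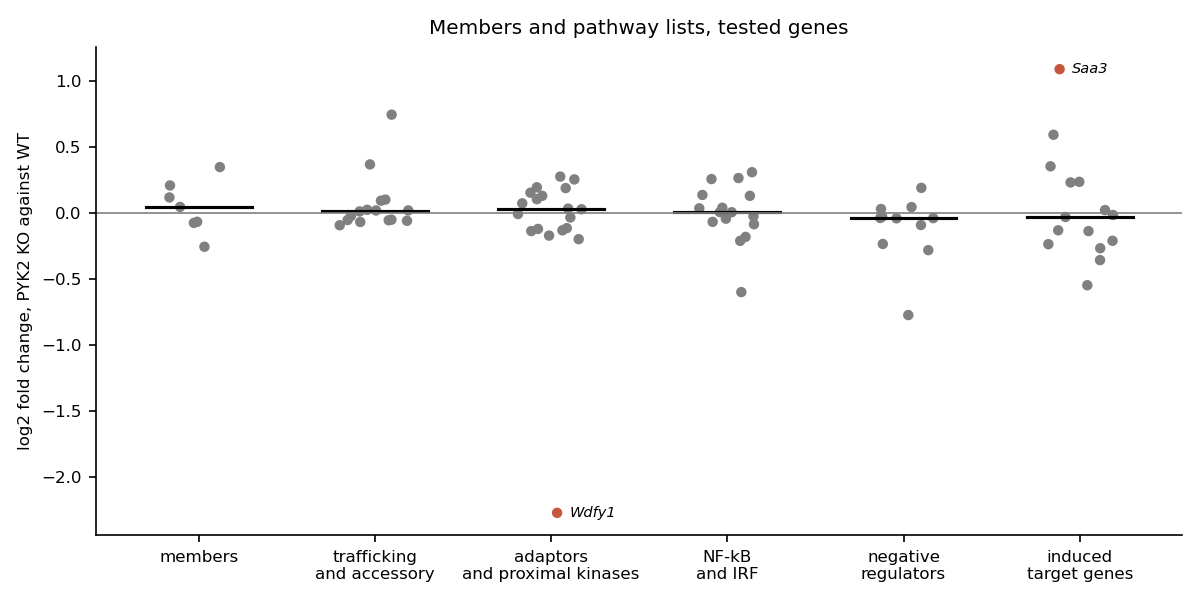
Log2 fold change, PYK2 KO against WT, of the tested members and of the tested genes of 5 pathway lists, with a point for each gene and a black line at the median of each list. Wdfy1 and Saa3, in red, passed the threshold, and the medians of the lists lie between -0.04 and 0.05.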

How the data were processed

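RNA-seq libraries of BMDMs from 3 WT and 3 PYK2 KO mice were prepared by MARS-seq in a version for bulk RNA. Reads were mapped and counted per gene with the UTAP pipeline, the submitters' processing notes name cutadapt, STAR and the build mm10, and the authors deposited raw whole-number counts. Whether molecular identifiers or strand were used is not given in the sources used here, so the exact binomial interval and the floors cover counting error only, while the intervals of the fitted folds also hold the spread between mice. All 6 columns name their mouse, and 0 columns belonged to other samples. Libraries of a genotype differed by more than counting error (chi-square per degree of freedom at least 2.15).

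Low counts were removed with filterByExpr, the rest scaled by TMM, and genotype, the only term, tested with the quasi-likelihood method of edgeR 4.0.16 under R 4.3.3, with a threshold of 0.05 on p-values adjusted after Benjamini and Hochberg. The scripts were tested on simulated data. Standard errors were derived from the F statistic with the log2 fold change, and 95% intervals from the t distribution. Alternatives were DESeq2 1.42.0, limma 3.58.1 (voom), edgeR's likelihood ratio test, other normalizations and filters, a covariate taken from the residuals (their first principal component), and leaving out each library. The permutation test used log2(CPM + 1). The members and lists were chosen with earlier results of these data known. Named were the members, the other Toll-like receptors and, in each list, the genes past the threshold, filled up to 4 by the smallest p-values, and for the 3 members with the widest range the 2 genes most alike in pattern among those within a factor of 4 in level. Annotation was taken from GENCODE M21 (GRCm38) by symbol.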

Additional observations from a re-analysis of the deposited data

How the results depend on the processing

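No paired analysis was possible because replicate numbers 1, 5 and 6 are all WT and 2, 3 and 4 all PYK2 KO. The number of members past the threshold was 0 in each alternative and in each fit that left out a library. Of 104 values of the 7 tested members, 102 kept both direction and side of the threshold and 2 reversed, the log2 fold changes of Tlr4 without PYK2 KO library 4 (-0.011) and of Cd14 without WT library 6 (0.0058). With 1 library left out, Tlr4 ran from -0.011 to 0.52 and Cd14 from -0.19 to 0.0058. The number of genes past the threshold was 25, and it was 159 without a filter on low counts, 45 with the likelihood ratio test and 62 when a covariate, the residuals' first principal component, was added. It ran from 14 to 34 with 1 library left out, the lowest without PYK2 KO library 4, and 15 without either WT library 5 or PYK2 KO library 2. The pathway lists had 2 genes past the threshold, 7 without a filter, where Acod1, Ccl2, Cd36, Dusp1 and Ly86 joined Wdfy1 and Saa3, 4 with the principal component, where Acod1 and Cd36 joined, and from 2 to 3 with 1 library left out, Acod1 joining without WT library 6 and Dusp1 when PYK2 KO library 3 was dropped. For these counts the cause was not tested. The Ptk2b log2 fold change ran from -3.19 to -3.11 with 1 library left out. The share of Tlr13 among the receptors ran from 54.8% to 56.0% in the same way, and those of Tlr2, Tlr1, Tlr4 and Tlr7 from 29.7% to 30.5%, 8.12% to 8.50%, 4.60% to 5.27% and 0.954% to 1.08%. Without a filter, Ly96, Tlr8 and Tlr9 could be fitted and did not pass, with adjusted p-values from 0.841 to 0.989 in edgeR's quasi-likelihood test. The counts of Tlr7, Tlr8, Tlr9 and Ly96 stayed at 13 or fewer in a library, which limits what can be said of them, and for Ly96 coverage of its 3′ end by the counting annotation was not tested.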
